A study of Mus musculus with 22 samples.

Results

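RNA from control mouse cartilage was set against RNA from control chondrocytes kept in culture without BMP2. The comparison used 7 of the 22 samples of the series: the 4 cartilage libraries labelled flox and the 3 untreated (day 0) cultures labelled Control, joined by gene identifier. The series as a whole studied the loss of Dnmt1, the maintenance DNA methyltransferase, and also held cartilage and cultures of mutants (Prrx1-Cre;Dnmt1 flox/flox in the culture labels, cKO in the cartilage labels) and cultures treated with BMP2. The control cartilage came from mice at postnatal day 5 with the genotype flox, replicates 1 and 2 from males and 3 and 4 from females. Per the labels' protocols it was digested with collagenase to remove connective tissue before RNA extraction. The control cultures were primary chondrocytes from knee articular cartilage with the genotype Dnmt1 flox, grown in medium with serum, and the series' design text gives an age of postnatal day 3 to 5 for the mice. All 7 samples thus carried the floxed Dnmt1 allele, none was labelled with Cre, and neither label gives the number of floxed copies. Source, culture, age range, library method and count table all changed together between the groups, so their parts in any difference cannot be told apart. Cartilage libraries were made with a 3' barcoding method with molecular identifiers (BRB-seq), culture libraries with a directional kit that reads whole transcripts. For this reason only differences of at least 4-fold (2 log2 units) with an adjusted p under 0.05 are read as large here, and a "higher" gene is one higher in cartilage.

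As background, chondrocytes fill cartilage with a matrix of type II, IX and XI collagen and of aggrecan, under the transcription factor Sox9. In a young joint the tissue runs from a lubricated surface with Prg4-positive cells to a growth plate in which chondrocytes divide, enlarge and finally make type X collagen, next to bone, marrow, vessels, ligament and tendon. Chondrocytes taken out of their matrix and grown on plastic are known to drift with time towards a fibroblast-like state with type I collagen and fibronectin.

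The labels were first checked against the libraries. Col2a1 was among the most abundant RNAs of every library (54642, 55152, 68807 and 46385 CPM, counts scaled to library size, in cartilage replicates 1 to 4 and 95936, 90789 and 95637 in culture replicates 1 to 3), so both groups held chondrocyte RNA. The targeted gene Dnmt1 was at 56.1, 54.6, 65.5 and 46.8 CPM in cartilage and 150.2, 139 and 141 in the cultures (log2 fold change -1.38, SE 0.10, adjusted p = 2.68e-07). Every control library held Dnmt1 RNA, and the cultures had more of it, below the 4-fold mark. Y-linked Ddx3y was at 136, 172, 9.096 and 5.89 CPM in cartilage, high in both males, and at 0.119, 0.999 and 131 in the cultures, for which no sex is labelled. Culture replicate 3 thus carried Y-linked RNA and replicates 1 and 2 hardly any. In cartilage replicates 1 to 4 Ddx3y had 266, 305, 15 and 17 estimated counts. Its whole-number counts, a deposited alternative described below, were 217, 234, 1 and 0, so the low Ddx3y values of the female libraries are uncertain. Cartilage libraries held 1723593 to 2967710 estimated counts and cultures 46911436 to 50701451, so that 3 counts were worth 1.01 to 1.74 CPM in cartilage and 0.0592 to 0.0640 CPM in culture. A gene absent from cartilage below about that level was not detectable at this depth. Xist, the RNA of the inactive X, was counted in the whole-number cartilage table alone, with 3, 4, 655 and 997 counts. Nothing in the cartilage labels says that the 4 libraries came from separate animals, and p-values measure the spread between these samples only.

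Across the transcriptome the 2 sources differed for most genes. Of 12384 genes tested, 10155 passed an adjusted p of 0.05, which is 82.0% of those tested: 4849 were higher (39.2%) and 5306 lower (42.8%) at any size, and 9917 (80.1%) had groups that did not overlap. Large differences were found for 2825 genes (22.8%), of which 1890 were higher (15.3%) and 935 lower (7.55%). The counts in gene lists below, whether of differences at any size, of large differences or of groups without overlap, are to be read beside these shares. Of 11919 protein-coding genes 20.4% differed by at least 4-fold, 1558 of them higher (13.1%) and 875 lower (7.34%), and of 424 pseudogenes, whose reads can belong to other copies, 360 did (84.9%). The median log2 fold change over all genes tested was -0.10. Leaving out 1 cartilage library changed the filter on low values, let 15018 to 15058 genes be tested and gave 1495 to 1557 lower genes, while leaving out 1 culture gave 925 to 929.

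The authors deposited 2 tables of the cartilage libraries, of estimated counts and of whole-number counts, and the choice of table changed part of this picture. With whole-number counts 1031 genes were higher and 966 lower, so that the share of large differences that were higher went from 66.9% to 51.6%. Over 10359 protein-coding genes tested with both tables the whole-number log2 fold change was larger by a median of 0.42, 90.6% of genes lay within 1 log2 unit, 4.61% lay over 2 units apart, and 1682 (16.2%) had the opposite direction. Of the 2433 large protein-coding differences, 1526 could be tested with the whole-number table, 1484 of these had the same direction and 1146 (75.1%) were again at least 4-fold. An alternative chosen after seeing the data, which required a large difference with both tables, kept 694 higher and 496 lower genes. Of the genes with values in the main comparisons below, 12 stood over 4-fold higher in cartilage with the estimated counts than with the whole-number counts or were near 0 in the latter: Pecam1, Hba-a2, Ms4a1, Myh8, Plin1, Saa3, Idi1, mt-Nd3, Hist1h2ap, Gm10160, Calb1 and Gm9844. Phgdh and Actg1, in the 2 gene groups put together after values were seen, did so too. The whole-number values are given beside each of them, and the cause of the disagreement was not tested.

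**Figure D1:**
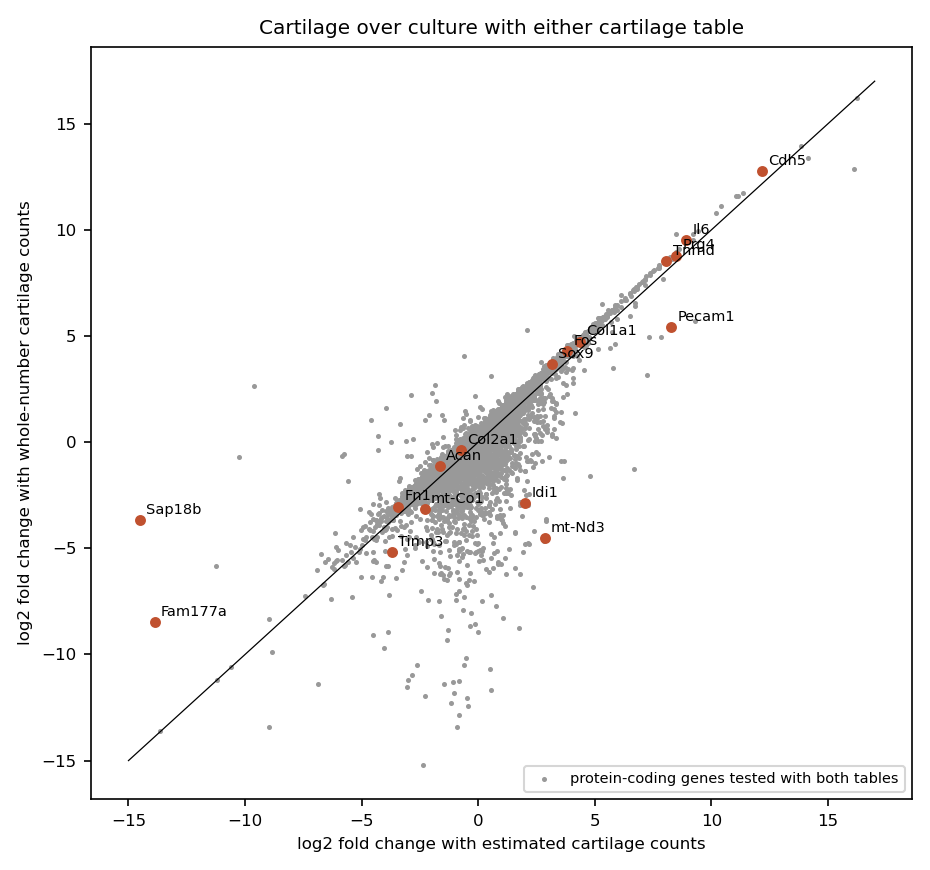
Each grey point is a protein-coding gene tested with both cartilage tables, with its log2 fold change of control cartilage over control day 0 culture from the estimated counts (x axis) and from the whole-number counts (y axis). Named genes are orange and the line marks equality: most genes follow it, 16.2% lie on opposite sides of 0, and mt-Nd3 (2.84 against -4.53) and Idi1 (2.01 against -2.87) are 2 named examples.

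Genes for the cartilage collagens were not higher in tissue than in culture. Of the 7 genes for type II, IX, XI and XXVII collagen chains, 6 were lower in cartilage and 1 higher, none by 4-fold. Over all genes tested 42.8% were lower and 39.2% higher at any size. The list's median log2 fold change was -0.74 beside -0.10 for all genes. Their summed level was 78310.3, 76973, 93082 and 65534 CPM in cartilage and 138421, 131017 and 137143 CPM in the cultures, with no overlap. Col2a1, the type II collagen chain (chr15:97975602-98004695, GRCm38), had the values given above and differed by less than 2-fold (log2 fold change -0.74, SE 0.10, adjusted p = 4.47e-05). Its difference no longer passed the test when culture counts were divided by transcript length (log2 fold change -0.13, adjusted p = 0.27). Col9a1, a chain of the type IX collagen that decorates type II fibrils, was at 4556, 3995, 4439 and 3745 CPM in cartilage and 7596, 7291 and 7436 in the cultures. All 4 cartilage libraries lay below all 3 cultures (log2 fold change -0.83, SE 0.07, adjusted p = 7.51e-07).

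Among 15 further cartilage matrix genes, 4 were at least 4-fold higher and 1 lower, with a median of 0.74. This median was -0.35 with culture counts per transcript length. Acan, the large aggregating proteoglycan, was lower at 3158, 3212, 3452 and 2707 CPM against 10109, 9410.2 and 9952, without overlap but under the 4-fold mark (log2 fold change -1.65, SE 0.08, adjusted p = 7.57e-09), and the difference was -0.51 per transcript length. Matn1, matrilin-1, was at 2590.4, 1566, 2597 and 2090.3 CPM against 3132, 3062 and 2875 (log2 fold change -0.45, SE 0.14, adjusted p = 0.014), and its whole-number log2 fold change was 0.04.

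Chad, chondroadherin, a leucine-rich protein that binds cells and collagen, was at 1118, 1109, 1161 and 652 CPM in cartilage and 32.6, 27.9 and 34.8 in the cultures (log2 fold change 4.99, SE 0.21, adjusted p = 4.17e-09). Cartilage replicate 4 was the lowest of its group, and still far above the cultures. Snorc, a small transmembrane proteoglycan of chondrocytes, was at 2088, 1810.3, 2122 and 1331 CPM against 133, 130.4 and 135 (log2 fold change 3.79, SE 0.16, adjusted p = 3.25e-09). Again replicate 4 was lowest. No values overlapped, which was a condition for naming Chad and Snorc. With culture counts per transcript length the difference in Snorc was 1.21, under the 4-fold mark. The other 10 tested members ran from -1.08 (Comp) to 3.65 (Mia) in log2 fold change. The 1 large difference in the other direction was in Clec3a, a cartilage C-type lectin, at 3.57, 3.94, 5.46 and 3.12 CPM against 89.6, 86.04 and 89.7 (log2 fold change -4.51, SE 0.14, adjusted p = 4.25e-10). Its cartilage values rested on 7 to 9 estimated counts a library, and the whole-number log2 fold change was smaller at -2.91.

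Transcription factors of the lineage moved apart. Of 8 genes, 7 were tested, 2 were at least 4-fold higher and 1 lower, with a median of 0.83. Sox9, the master regulator of chondrocytes (chr11:112782224-112787760), was at 2399, 2265, 2676 and 1863 CPM in cartilage against 249.8, 259 and 261 in the cultures (log2 fold change 3.17, SE 0.11, adjusted p = 1.29e-09). Every culture thus lay above every cartilage library for Col2a1 and below every one for Sox9. The other 4 tested members ran from -0.68 (Sox6) to 1.15 (Sox5) in log2 fold change. Foxa3, a forkhead factor, was at 78.5, 74.2, 97.03 and 47.5 CPM against 6.14, 5.17 and 5.79 (log2 fold change 3.66, SE 0.19, adjusted p = 2.16e-08). Nkx3-2, a repressor of chondrocyte maturation, went the other way: it was at 9.33, 11.1 and 10.3 CPM in the cultures, while the 4 cartilage libraries held 1 count in all (ratio 84.7, 95% counting interval 15.2 to 3345).

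Genes of the joint surface stood higher in tissue as a group. Of 10 members, 6 were at least 4-fold higher and none lower, and the median was 3.26. In bulk RNA, fewer cells of a type and less RNA per cell cannot be told apart, here and in all that follows. Prg4, the lubricating proteoglycan lubricin (chr1:150449412-150466165), showed the widest gap, at 2329, 1744, 3184 and 2389 CPM in cartilage and 6.66, 7.41 and 6.23 in the cultures (log2 fold change 8.47, SE 0.23, adjusted p = 1.96e-10). Replicate 3 was highest and replicate 2 lowest, and every cartilage value lay far above every culture value.

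Cilp, cartilage intermediate layer protein, was at 41.8, 52.3, 72.8 and 49.5 CPM against 2.44, 1.92 and 1.26 (log2 fold change 4.83, SE 0.25, adjusted p = 1.700e-08). Its relative Cilp2 was at 110.1, 269, 205 and 288 CPM against 16.3, 19.01 and 11.9 (log2 fold change 3.80, SE 0.30, adjusted p = 4.84e-07). Thbs4, a thrombospondin of joint and tendon matrix, was at 208, 265, 294 and 460.3 CPM in cartilage and 15.002, 9.83 and 3.64 in the cultures (log2 fold change 5.02, SE 0.45, adjusted p = 1.24e-06). None of these groups overlapped, which was a condition for naming Cilp, Cilp2 and Thbs4 and held for 80.1% of all genes tested. The other 6 tested members ran from -0.02 (Gdf5) to 3.79 (Creb5) in log2 fold change. Cilp2 was lowest in cartilage replicate 1, as were Tnmd, Mmp9 and Acp5 below, and Thbs4 spread over 4-fold among the cultures.

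**Figure D2:**
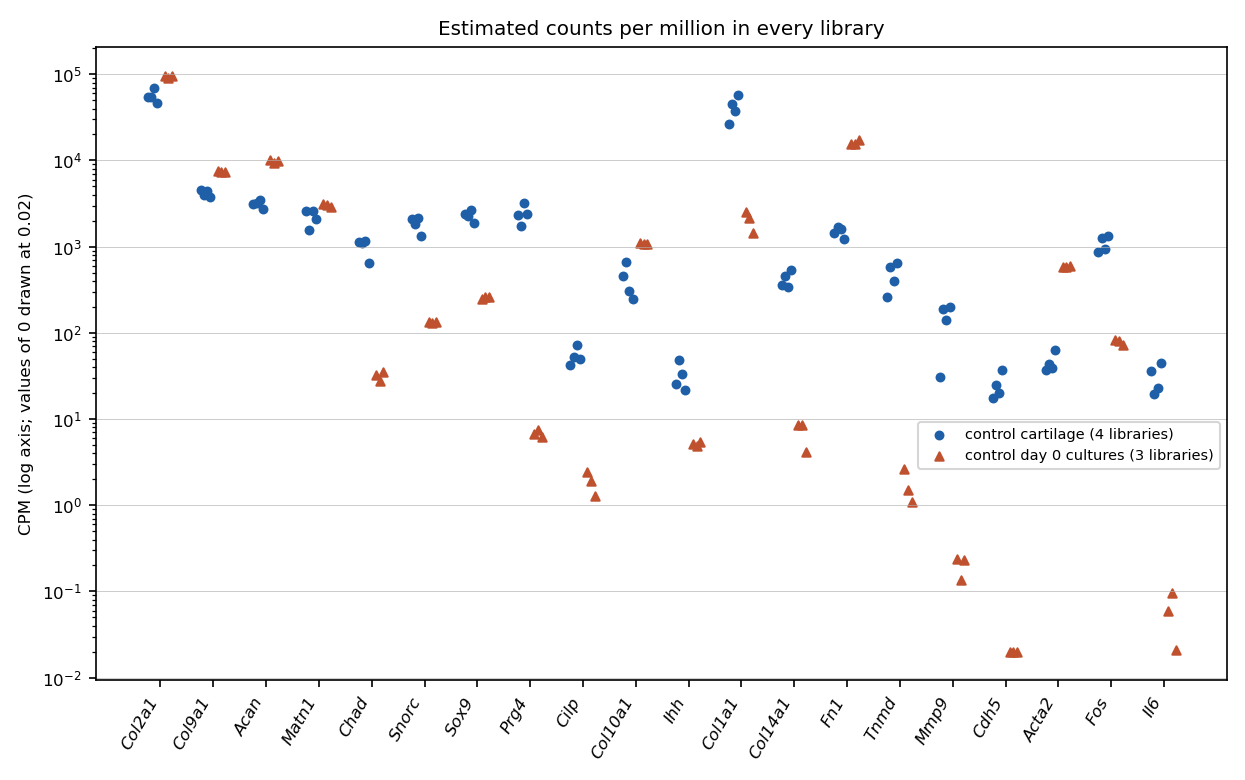
Points give CPM of 20 named genes (log axis) in each control cartilage library (blue circles) and each control day 0 culture (orange triangles), with values of 0 drawn at 0.02. Col2a1, Acan, Col10a1, Fn1 and Acta2 lie higher in the cultures, and Sox9, Prg4, Col1a1, Tnmd and Mmp9 higher in cartilage.

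Genes of enlarged (hypertrophic) chondrocytes were mostly higher in tissue, but few by 4-fold and not all in the same direction. Of 12 members, 9 were higher and 2 lower at any size, beside 39.2% and 42.8% of all genes tested. At least 4-fold higher were 2 and none lower, beside 15.3% and 7.55% of all genes tested, with a median of 1.56. Col10a1, the type X collagen that defines these cells, was lower in tissue, at 459, 669, 309 and 248 CPM against 1105, 1071 and 1078 (log2 fold change -1.37, SE 0.26, adjusted p = 4.43e-04). It spread by more than 2-fold among cartilage libraries and was highest in replicate 2. Mmp13, a collagenase of the lowest hypertrophic layer and of osteoblasts, was higher at 87.2, 237, 187 and 233 CPM against 35.8, 37.2 and 25.8 (log2 fold change 2.50, SE 0.28, adjusted p = 8.89e-06). Spp1, osteopontin, was at 365, 633, 471 and 363 against 134, 123 and 119 CPM (log2 fold change 1.86, SE 0.18, adjusted p = 2.01e-06), under the 4-fold mark. Col10a1 and Mmp13, both genes of the terminal zone, thus differed in opposite directions. The other 8 tested members ran from -1.30 (Phospho1) to 1.96 (Mef2c) in log2 fold change.

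In the growth plate, Ihh from maturing chondrocytes signals to cells that release PTHrP (Pthlh), which holds back maturation. Of 11 genes of this loop 3 were at least 4-fold higher, none was lower by that much, and the median was 0.40. The ligand Ihh was at 25.5, 48.9, 33.4 and 21.8 CPM against 5.19, 4.84 and 5.41 (log2 fold change 2.62, SE 0.24, adjusted p = 1.58e-06). Pthlh was low in both, at 4.08, 4.499, 4.24 and 2.42 CPM against 0.694, 0.864 and 0.716 (log2 fold change 2.27, SE 0.34, adjusted p = 9.22e-05). With culture counts per transcript length its difference was 1.22, under the 4-fold mark. Hhip, a hedgehog-binding inhibitor and target, was at 51.99, 41.1, 58.8 and 41.9 CPM against 3.82, 4.01 and 2.84 (log2 fold change 3.75, SE 0.18, adjusted p = 1.05e-08). The groups did not overlap for any of these genes, as for 80.1% of all genes tested, and for Pthlh and Hhip this was a condition for naming them. Among the receptors and transducers, the other 7 tested members ran from -1.64 (Smo) to 1.45 (Pth1r) in log2 fold change.

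The type I collagen genes stood far higher in tissue. Col1a1 was at 26669.9, 45354, 37180.4 and 56759 CPM in cartilage and 2529, 2134 and 1429 in the cultures (log2 fold change 4.35, SE 0.28, adjusted p = 1.04e-07). Col1a2, the partner chain, was at 13961, 22442, 16818 and 23721 CPM against 2404, 2138 and 1673 (log2 fold change 3.21, SE 0.20, adjusted p = 6.82e-08). Tissue, not culture, held more of this fibrous collagen, in every library, which for Col1a2 was a condition for naming it. Col14a1, a fibril-associated collagen of tendon and perichondrium, was at 354, 452, 337 and 539 CPM against 8.44, 8.49 and 4.17 (log2 fold change 5.90, SE 0.28, adjusted p = 9.91e-09). These were the 3 of 11 connective tissue collagens that passed the 4-fold mark. Col3a1 differed by about 2-fold (log2 fold change 1.02, SE 0.17, adjusted p = 2.29e-04), 4 were lower by less than 4-fold (to -1.33 for Col5a1), and the median was -0.13, which became 0.38 with whole-number counts and 1.61 per transcript length.

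Tendon genes varied within cartilage along with type I collagen. Tnmd, tenomodulin, a membrane protein of tendon and ligament cells (chrX:133850980-133865577), was at 260.5, 586, 402 and 640.4 CPM against 2.66, 1.498 and 1.095 (log2 fold change 8.07, SE 0.41, adjusted p = 1.64e-08). Kera, keratocan, a small proteoglycan found in tendon, was at 94.8, 184, 113 and 222 CPM, with 2 to 4 counts in each culture (log2 fold change 11.07, SE 0.45, adjusted p = 3.11e-09). Scx, the tendon transcription factor scleraxis, was at 30.6, 58.5, 39.4 and 59.2 against 5.03, 5.67 and 5.497 CPM (log2 fold change 3.14, SE 0.20, adjusted p = 1.03e-07). For Tnmd, Kera and Col1a1, replicates 2 and 4 were the highest cartilage libraries and replicate 1 the lowest. Of 6 tendon genes 4 were at least 4-fold higher and none lower by that much (median 2.78). Thbs2, a matrix protein of connective tissue, was the fourth (log2 fold change 2.43, SE 0.19, adjusted p = 5.503e-07). Tnc, tenascin C, was lower by less than 4-fold (-1.62).

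Fibroblast genes split. Of 14 members 13 were tested, 6 were at least 4-fold higher and 1 lower, with a median of 1.98. Fap, a surface protease of activated fibroblasts, was at 159, 145, 196 and 155 CPM against 4.14, 4.38 and 4.49 (log2 fold change 5.23, SE 0.12, adjusted p = 8.63e-11). Postn, periostin of the periosteum and perichondrium, was at 355, 456, 268 and 610.3 against 23.8, 14.9 and 7.33 (log2 fold change 4.79, SE 0.41, adjusted p = 9.09e-07). Dpt, dermatopontin, was at 28.03, 30.4, 52.2 and 75.9 CPM against 2.497, 1.96 and 1.31 (log2 fold change 4.63, SE 0.36, adjusted p = 4.72e-07). Thy1, a surface marker of mesenchymal cells, was under the 4-fold mark (log2 fold change 1.78, SE 0.24, adjusted p = 3.72e-05). The other 8 tested members ran from -1.82 (Pdgfrb) to 2.28 (Dcn) in log2 fold change. Fn1, fibronectin, was the 1 large difference in the other direction, at 1439, 1703, 1583 and 1242 CPM in cartilage and 15636, 15605 and 17191 in the cultures (log2 fold change -3.44, SE 0.10, adjusted p = 2.61e-10). The cultures therefore had far less RNA of Col1a1, Postn, Fap and Dpt than the tissue, and far more of Fn1.

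Cell types that surround cartilage were next read from their marker lists. The filter on low values keeps a gene that is high in only 1 group, so a list with few tested members is given over all its members. In every cartilage library some markers of blood cells, vessels and bone resorption were present, and in the cultures most were at or near 0. Their part in the other differences was not tested.

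Endothelial genes were summed at 297, 414, 443 and 497 CPM in cartilage and 5.25, 4.897 and 4.34 in the cultures. Pecam1 alone had a mean of 278 CPM in cartilage, beside 413 for the sum. With whole-number counts the cartilage sums were 147, 224, 206 and 296 CPM. Of 14 members 11 were at least 4-fold higher, with a median of 7.17, or 6.71 with genes near 0 in the cultures set to their bound. Cdh5, the endothelial cadherin, was at 17.3, 24.7, 20.01 and 36.7 CPM in cartilage and had no count in any culture, which makes it at least 411-fold higher against a floor of 3 counts a library. Robo4, a vascular guidance receptor, was likewise at 4.08, 8.44, 3.03 and 9.35 CPM against no count (at least 104-fold). Emcn, endomucin, had 3 counts over the 3 cultures (ratio 462, 95% counting interval 158 to 2243), and Esam, an endothelial adhesion molecule, differed likewise (log2 fold change 7.74, SE 0.39, adjusted p = 1.53e-08). Pecam1, the adhesion molecule CD31, was at 202, 274, 316 and 318 CPM against 0.991, 0.826 and 0.885 (log2 fold change 8.26, SE 0.20, adjusted p = 9.94e-11). The whole-number table held 30, 42, 28 and 73 Pecam1 counts and gave a log2 fold change of 5.43, so its direction held and its size did not.

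Globin RNA was found in every cartilage library. Hbb-bs, adult beta globin, was at 167, 278, 477 and 777 CPM in cartilage with no count in any culture, at least 7069-fold higher. Hba-a1, alpha globin, was at 39.8, 68.6, 109 and 168 CPM with no culture count (at least 1603-fold). Hba-a2 (at least 6439-fold) and Hbb-bt (at least 1290.03-fold) are near-identical to them, so the split between copies is uncertain: Hba-a2 had 9, 25, 38 and 122 whole-number counts beside 334, 455, 688 and 2033 estimated ones. Globin RNA was lowest in replicate 1 and highest in replicate 4. Alas2, the haem enzyme of red-cell precursors, was at 3.06, 1.69, 5.46 and 7.27 CPM against 0.159, 0.173 and 0.105 in the cultures, which is near the cartilage floor and below the filter. None of the 8 listed erythroid genes other than globins that the table holds passed it.

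Macrophage genes were summed at 93.3, 92.8, 87.9 and 148 CPM against 5.09, 5.80002 and 5.62 in the cultures, and 8 of 15 members were at least 4-fold higher. C1qa, a subunit of the complement protein C1q, was at 8.16, 4.499, 4.24 and 16.6 CPM with no count in the cultures (at least 139-fold). Its partner chain C1qb had 2 counts over the cultures (ratio 373, 95% counting interval 103 to 3083) and C1qc had 6 (ratio 239, 95% counting interval 109.97 to 652). Csf1r, the receptor for macrophage growth factor, was at 24.98, 17.4, 15.2 and 22.9 CPM against 0.535, 0.384 and 0.211 (log2 fold change 5.73, SE 0.32, adjusted p = 3.46e-08). Lyz2, lysozyme, was at 8.67, 19.1, 16.4 and 23.9 CPM against 0.654, 1.36 and 1.16 (log2 fold change 4.03, SE 0.36, adjusted p = 1.22e-06). Ptprc, the pan-leukocyte marker CD45, was at 3.06, 2.81, 6.67 and 5.89 CPM, below the filter. Neutrophil genes were at or near 0: Elane had no count in any library and S100a8 was at 1.02, 0, 0 and 2.77 CPM and S100a9 at 0.5097, 0, 0 and 1.04 in cartilage. Among the 8 macrophage genes tested no cartilage group overlapped its cultures, beside 80.1% of all genes tested without overlap. Those near 0 in the cultures passed the filter on low values only through cartilage, so their lack of overlap is no separate result. Pf4 of megakaryocytes was at 20.9, 5.62, 7.88 and 21.1 CPM with no count in the cultures (at least 231-fold). Of 12 lymphoid genes, among them Cd79b of B cells at 0, 0, 0.606 and 0.346 CPM, only Ms4a1 was tested, and its 8, 9, 6 and 13 estimated counts stood beside 0, 1, 0 and 0 whole-number ones.

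Of 12 osteoclast genes, 4 were at least 4-fold higher in tissue, Ctsk did not pass and 7 did not pass the filter on low values. Mmp9, a gelatinase of osteoclasts, was at 31.1, 189, 142 and 197 CPM against 0.238, 0.134 and 0.232 (log2 fold change 9.42, SE 0.67, adjusted p = 2.05e-07). Acp5, tartrate-resistant acid phosphatase, was at 15.3, 49.5, 42.4 and 38.4 CPM against 0.813, 0.903 and 0.906 (log2 fold change 5.37, SE 0.33, adjusted p = 7.61e-08). Both were lowest in cartilage replicate 1. Nfatc1, a transcription factor of osteoclasts and other cells, was at 355, 353, 424 and 374 against 32.2, 31.2 and 32.2 CPM (log2 fold change 3.56, SE 0.09, adjusted p = 9.94e-11). Ocstamp of osteoclast fusion was near the floor in cartilage at 3.57, 3.94, 2.43 and 7.27 CPM (log2 fold change 3.24, SE 0.39, adjusted p = 1.61e-05). Ctsk, cathepsin K, did not pass, at 75.4, 145, 95.8 and 162 CPM against 148, 153 and 149.7 (log2 fold change -0.31, SE 0.20, adjusted p = 0.16). It passed as lower in 6 alternative fits, among them those without cartilage replicate 2 (-0.55) or 4 (-0.68), and its sign turned with whole-number counts (0.19).

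Genes of bone-forming cells had a median log2 fold change of 2.41 over their 5 tested members. With whole-number counts, where Dmp1 and Phex were not tested, it was 0.75. Bglap, osteocalcin, was at 2.04, 2.81, 0 and 2.42 CPM in cartilage and under the filter. Ibsp, bone sialoprotein, was at 41.8, 178, 70.3 and 59.9 CPM against 19.1, 17.3 and 11.98 (log2 fold change 2.41, SE 0.39, adjusted p = 1.54e-04), with replicate 2 over 2-fold above the other cartilage libraries. With culture counts per transcript length the difference was 1.72, under the 4-fold mark. Dmp1, an osteocyte matrix protein, was at 3.57, 12.9, 3.03 and 8.31 CPM against 0.456, 0.288 and 0.232 (log2 fold change 4.41, SE 0.51, adjusted p = 1.02e-05). Phex, an osteocyte peptidase, was at 9.68, 13.5, 16.98 and 11.1 CPM against 0.694, 0.365 and 0.716 (log2 fold change 4.41, SE 0.33, adjusted p = 3.03e-07). These were the 3 of 11 members that were at least 4-fold higher, and the summed list overlapped between tissue (407, 587, 414 and 283 CPM) and culture (359, 366 and 376).

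Markers of other tissues were low. Acta1, skeletal actin, was at 1.02, 0, 0.606 and 0.346 CPM in cartilage and 4.796, 4.63 and 4.402 in the cultures (ratio 9.54, 95% counting interval 3.72 to 34.998, higher in the cultures). Tnni2, a troponin also found in cartilage, was at 62.7, 32.1, 54.6 and 13.9 CPM against 5.11, 3.61 and 3.69 (log2 fold change 3.25, SE 0.40, adjusted p = 1.86e-05), lowest in replicate 4, and 1.36 per transcript length. Myh8 had 7, 8, 10 and 8 estimated and no whole-number counts in the cartilage libraries, and Plin1, a lipid droplet protein, likewise had no whole-number count beside 9.17, 7.31, 8.49 and 4.85 CPM. Fabp4, a fatty acid carrier of adipocytes and capillaries, was at 25.5, 23.1, 18.8 and 33.3 CPM against 0.674, 0.999 and 0.632 (log2 fold change 5.05, SE 0.25, adjusted p = 1.496e-08), and the fatty acid receptor Cd36 was higher too (log2 fold change 4.53, SE 0.38, adjusted p = 7.23e-07). Pparg, the adipocyte regulator, was lower in tissue at 0, 1.12, 1.82 and 1.73 CPM against 6.14, 6.299 and 7.62 (log2 fold change -2.47, SE 0.41, adjusted p = 1.803e-04), a difference resting on few cartilage counts. Krt14, a keratin of skin, was under 2 CPM in every library and below the filter.

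**Figure D3:**
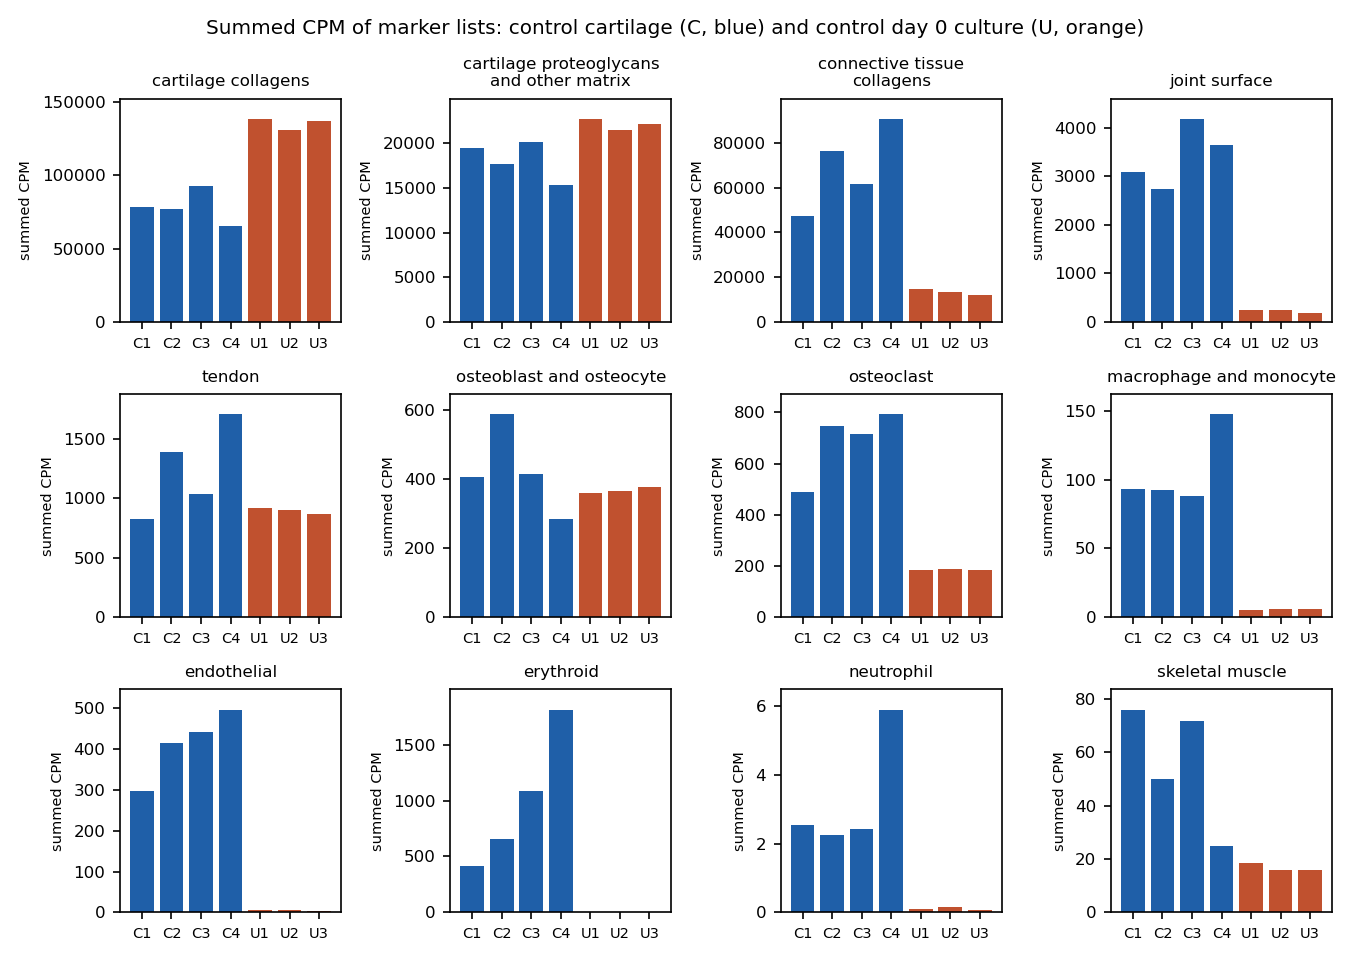
Bars give the summed CPM of all measured members of 12 marker lists in control cartilage replicates 1 to 4 (C, blue) and control day 0 culture replicates 1 to 3 (U, orange), each panel with its own axis from 0. Endothelial, erythroid, macrophage and joint surface sums are higher in every cartilage library than in any culture, whereas the tendon and osteoblast sums overlap and the cartilage collagen sum is higher in culture.

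Of the 11 members of the pericyte and smooth muscle list, 3 were at least 4-fold higher and 3 lower. Rgs5, a pericyte marker, was at 47.9, 53.99, 38.2 and 96.98 CPM in cartilage against 0.139, 0.192 and 0.126 in the cultures (log2 fold change 8.60, SE 0.39, adjusted p = 7.003e-09). Abcc9, a channel subunit of pericytes, was at 7.65, 5.06, 7.28 and 9.35 CPM against 0.258, 0.288 and 0.274 (log2 fold change 4.75, SE 0.32, adjusted p = 1.58e-07). Acta2, Tagln and Cnn1 went the other way. Acta2, smooth muscle actin, was at 37.2, 43.9, 38.8 and 63.04 CPM in cartilage and 578, 579 and 603 in the cultures (log2 fold change -3.65, SE 0.14, adjusted p = 2.18e-09). Tagln, an actin-binding protein, was at 3.06, 7.31, 4.24 and 7.27 CPM against 181, 148 and 154 (log2 fold change -4.83, SE 0.18, adjusted p = 1.73e-09). Cnn1, calponin, had 5 counts over the 4 cartilage libraries against 7.81, 6.99 and 7.29 CPM (ratio 12.2, 95% counting interval 5.22 to 37.5). Every cartilage library lay below every culture for these 3 genes, which for Tagln and Cnn1 was a condition for naming them. Myh11, a smooth muscle myosin, was the third higher member, with a log2 fold change of 3.39.

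Genes of DNA replication and mitosis tended to be lower in tissue. Of 18 members 15 were lower and 1 higher at any size, beside 42.8% and 39.2% of all genes tested, and 4 were lower by at least 4-fold, with a median of -1.13. Plk1, a mitotic kinase, was at 3.06, 7.31, 4.85 and 8.66 CPM against 50.2, 48.5 and 48.2 (log2 fold change -2.97, SE 0.18, adjusted p = 5.26e-08). Bub1 of the spindle checkpoint was at 2.04, 7.87, 1.82 and 6.58 against 29.2, 27.2 and 24.4 CPM (log2 fold change -2.48, SE 0.27, adjusted p = 5.89e-06; whole-number -1.97, under the 4-fold mark). Mcm2 of the replication helicase was at 19.4, 27.6, 6.67 and 20.8 CPM against 122, 105 and 103 (log2 fold change -2.53, SE 0.22, adjusted p = 1.22e-06), with cartilage replicate 3 the lowest. Mki67, the proliferation marker, was less than 4-fold lower, at 127, 120.3, 119 and 68.6 CPM against 255, 239.7 and 239 (log2 fold change -1.19, SE 0.16, adjusted p = 4.16e-05), and its sign turned per transcript length (0.41). Cdkn1a, the cell cycle inhibitor p21, was higher at 465, 509, 461 and 369 CPM against 114, 108 and 114 (log2 fold change 2.01, SE 0.10, adjusted p = 1.76e-08). It was under the 4-fold mark per transcript length (1.33). Of 6 cyclin-dependent kinase inhibitor genes 5 were tested, 3 were higher and 1 lower at any size, and Cdkn1a alone passed the 4-fold mark. Their median log2 fold change was 0.81 and the lowest -0.80. Cdkn2a, another inhibitor, was at 0, 0.562, 0 and 0 CPM in cartilage and 0.515, 0.711 and 0.442 in the cultures and below the filter. The other 14 tested members of the replication and mitosis list ran from -2.29 (Ccnb1) to 0.52 (Tyms) in log2 fold change.

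Immediate early genes, which cells switch on within minutes of a stimulus, were higher in every cartilage library. All 14 members were higher, 11 by at least 4-fold, beside 39.2% and 15.3% of all genes tested, with a median of 4.21. Their summed level was 4747, 6132, 5909 and 7759 CPM in cartilage against 623, 605 and 614 in the cultures. Fos, a subunit of AP-1, was at 861, 1252, 936 and 1316 CPM against 81.6, 79.7 and 71.9 (log2 fold change 3.81, SE 0.16, adjusted p = 3.69e-09). Fosb, its relative, was at 303, 385, 396 and 459.98 CPM against 12.4, 11.02 and 9.52 (log2 fold change 5.13, SE 0.16, adjusted p = 4.51e-10). Nr4a1, an orphan nuclear receptor, was at 139, 165, 158 and 267 CPM against 5.27, 4.57 and 4.11 (log2 fold change 5.31, SE 0.24, adjusted p = 5.84e-09). Egr3, a zinc finger factor, had the widest gap, at 43.3, 54.6, 48.5 and 50.9 against 0.178, 0.211 and 0.0843 CPM (log2 fold change 8.22, SE 0.23, adjusted p = 2.14e-10). Replicate 4 was highest for Fos, Fosb and Nr4a1. No group overlapped, beside 80.1% of all genes tested without overlap, and for Fosb, Nr4a1 and Egr3 this was a condition for naming them. Egr3 was near 0 in the cultures and passed the filter on low values only through cartilage. The other 10 tested members ran from 0.78 (Dusp1) to 5.05 (Ier3) in log2 fold change.

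Most cytokine and acute phase genes were higher in tissue and near 0 in the cultures. Of 13 members 10 were tested, 8 were at least 4-fold higher and 1 lower (median 7.22, or 7.13 with a gene near 0 at its bound). Il6, interleukin 6 (chr5:30013114-30019981), was at 36.2, 19.7, 23.04 and 45.03 CPM in cartilage and 0.0595, 0.09603 and 0.0211 in the cultures (log2 fold change 8.93, SE 0.42, adjusted p = 9.57e-09). The chemokine Cxcl2, which attracts neutrophils, was at 41.3, 34.9, 46.7 and 54.4 CPM against 0.119, 0.09603 and 0.0211 (log2 fold change 9.03, SE 0.31, adjusted p = 7.86e-10). Ccl2, which attracts monocytes, was at 34.7, 31.5, 26.7 and 67.9 CPM against 0.238, 0.154 and 0.169 (log2 fold change 7.76, SE 0.40, adjusted p = 1.81e-08). For all 3 the lowest cartilage library lay far above the highest culture, beside 80.1% of all genes tested without overlap. For Cxcl2 and Ccl2 a lack of overlap was a condition for naming them. All 3 were near 0 in the cultures and passed the filter on low values only through cartilage, so their lack of overlap is no separate result. Cxcl1, named after its values were seen, was at 125, 121, 118 and 174 CPM against 1.05, 1.23 and 0.737 (log2 fold change 7.06, SE 0.21, adjusted p = 2.96e-10). Saa3, serum amyloid A3, read 728, 593, 722 and 515 CPM with the estimated counts (log2 fold change 8.53, SE 0.17, adjusted p = 3.44e-11) and 0, 1, 0 and 1 counts in the whole-number table, so its level in tissue is uncertain. Lcn2, lipocalin 2, chosen here as the 1 large difference in the other direction, was lower (-2.11). The macrophage and endothelial sums, likewise higher in cartilage than in culture, are given above, and their part was not tested.

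For 5 of the immediate early and cytokine genes the 250 bases before the start site are shown, from RefSeq's GRCm38.p6 table, 5′ to 3′ on the gene's strand. Capitals mark letters that fit the kappaB site by name, searched on both strands, which in Cxcl1 and Cxcl2 are a pair of overlapping matches. The 5 were chosen by hand and include every cytokine window with a match. That all 5 windows shown hold a match is therefore no result, and most windows of both lists, counted below, hold none.
Cxcl1: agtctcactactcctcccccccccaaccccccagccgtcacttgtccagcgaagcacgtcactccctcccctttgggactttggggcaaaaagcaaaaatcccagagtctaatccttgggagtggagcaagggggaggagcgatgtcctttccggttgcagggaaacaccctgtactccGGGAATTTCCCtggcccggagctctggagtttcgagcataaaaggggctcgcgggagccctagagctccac
Cxcl2: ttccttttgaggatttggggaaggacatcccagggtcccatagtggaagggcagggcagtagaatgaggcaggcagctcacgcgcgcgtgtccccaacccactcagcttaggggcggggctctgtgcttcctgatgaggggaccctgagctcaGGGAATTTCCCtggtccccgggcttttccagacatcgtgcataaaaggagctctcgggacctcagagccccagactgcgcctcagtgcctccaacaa
Il6: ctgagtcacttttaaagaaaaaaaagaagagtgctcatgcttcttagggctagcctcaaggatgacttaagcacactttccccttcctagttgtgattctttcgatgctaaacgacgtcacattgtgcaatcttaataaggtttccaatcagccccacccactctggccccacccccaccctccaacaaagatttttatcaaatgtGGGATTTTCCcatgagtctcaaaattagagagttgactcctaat
Fos: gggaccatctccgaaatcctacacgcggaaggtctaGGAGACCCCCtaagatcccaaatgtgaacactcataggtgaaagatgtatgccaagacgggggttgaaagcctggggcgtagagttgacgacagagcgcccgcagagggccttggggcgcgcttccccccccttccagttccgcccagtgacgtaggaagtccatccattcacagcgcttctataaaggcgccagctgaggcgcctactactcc
Fosb: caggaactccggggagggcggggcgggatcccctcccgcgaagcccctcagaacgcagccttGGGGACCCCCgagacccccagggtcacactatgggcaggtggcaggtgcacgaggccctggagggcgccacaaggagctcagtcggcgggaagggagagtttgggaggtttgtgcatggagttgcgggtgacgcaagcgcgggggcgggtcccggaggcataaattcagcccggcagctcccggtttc
The windows lie at chr5:90890995-90891244 on the plus strand, chr5:90903649-90903898 on the plus strand, chr5:30012864-30013113 on the plus strand, chr12:85473640-85473889 on the plus strand and chr7:19310046-19310295 on the minus strand. The table held windows for 9 of the 13 cytokine genes and 11 of the 14 immediate early genes. A kappaB match was found in 3 of 9 windows of the cytokine list (33.3%), in 3 of 15 windows of the immediate early list (20%) and in 1281 of 32851 windows of the whole table (3.90%). The CArG box, searched by name, was in 5 of the 15 immediate early windows (33.3%), 4 of them windows of Egr2, and in 1.47% of all windows. TGACGTCA was in 2 of the 15 (13.3%) and in 1.55% of all, and TGANTCA in 1 of the 9 cytokine windows (11.1%), none of the immediate early ones and 6.75% of all. Such matches describe letters and not binding.

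Stress and protease genes showed mixed directions. Hspa1a, an inducible heat shock chaperone, was at 68.8, 78.2, 51.5 and 129.5 CPM against 2.22, 2.67 and 2.34 (log2 fold change 5.14, SE 0.27, adjusted p = 2.01e-08). Hspa1b was at 86.1, 97.3, 81.3 and 184 CPM against 7.55, 9.03 and 7.44 (log2 fold change 3.84, SE 0.27, adjusted p = 1.85e-07). The 2 genes encode nearly the same protein, so the split between them is uncertain, and both were highest in replicate 4. Hsph1, a co-chaperone, was lower at 40.8, 32.1, 31.5 and 44.3 CPM against 199, 197 and 199.95 (log2 fold change -2.39, SE 0.11, adjusted p = 6.199e-09), and fell short of the 4-fold mark with whole-number counts (-1.89) and per transcript length (-1.88). The list's median of 0.71 became -0.20 with whole-number counts. Of 15 matrix proteases and inhibitors 6 were at least 4-fold higher and 1 lower (median 2.04). Mmp3, stromelysin-1, was at 14.8, 22.5, 41.8 and 15.9 CPM against 1.13, 1.06 and 0.906 (log2 fold change 4.47, SE 0.35, adjusted p = 4.48e-07). Adamts4, an aggrecanase, was at 19.9, 16.3, 20.6 and 22.2 CPM against 0.694, 1.09 and 0.716 (log2 fold change 4.56, SE 0.24, adjusted p = 2.01e-08). Mmp23 was higher as well (log2 fold change 3.09, SE 0.21, adjusted p = 1.39e-07), but by 1.87 per transcript length, under the 4-fold mark. Timp3, an inhibitor bound to the matrix, was lower at 403, 350.4, 404 and 325 CPM against 4589, 4831 and 4996 (log2 fold change -3.70, SE 0.08, adjusted p = 7.74e-11; whole-number -5.18).

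In metabolism, none of the 17 glycolysis genes passed the 4-fold mark in either direction, the median was -0.16, and the range was -1.13 (Pfkl) to 1.17 (Pfkfb3). Of 11 hypoxia response genes 4 were at least 4-fold higher (median 1.05). Ddit4, an inhibitor of growth signalling, was at 163, 168, 171 and 179.8 CPM against 34.5, 35.05 and 38.1 (log2 fold change 2.25, SE 0.08, adjusted p = 9.39e-10). The oxygen sensor Egln3 was at 13.3, 10.7, 21.2 and 19.1 CPM against 2.52, 2.69 and 2.19 (log2 fold change 2.71, SE 0.23, adjusted p = 9.37e-07), and Ankrd37 was higher too (log2 fold change 3.64, SE 0.30, adjusted p = 5.92e-07). Ddit4 and Ankrd37 were under the mark per transcript length (1.32 and 1.80). The other 8 tested members ran from -0.29 (P4ha1) to 2.13 (Car9) in log2 fold change. Of 13 cholesterol genes 2 were at least 4-fold higher, beside 15.3% of all genes tested (median 0.82). Insig1, a sterol feedback regulator, was at 641, 595, 749.5 and 549 CPM against 49.1, 50.6 and 52.5 (log2 fold change 3.64, SE 0.11, adjusted p = 3.91e-10). The other was Idi1, with an estimated log2 fold change of 2.01 but 7, 3, 2 and 4 whole-number counts and -2.87 from them.

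Groups of genes with many copies or short transcripts depended on the table. Of 13 mitochondrially encoded genes 4 were at least 4-fold higher and 1 lower, with a median of 1.88 that became -0.20 per transcript length and -3.16 with whole-number counts. mt-Nd3 of respiratory complex I read 864, 1005, 1112 and 968 CPM in cartilage (log2 fold change 2.84, SE 0.10, adjusted p = 1.199e-09) but 6, 4, 7 and 9 whole-number counts (-4.53), and -0.42 per transcript length. mt-Co1 of complex IV was lower with either table (-2.30 and -3.16), and mt-Nd6 was higher with both (2.49 and 2.93) but -0.19 per transcript length. Of 80 cytosolic ribosomal protein genes 6 were at least 4-fold higher and 1 lower, beside 15.3% and 7.55% of all genes tested (median 1.12, and -0.64 per transcript length). Rps12 had the widest gap (log2 fold change 4.09, SE 0.09, adjusted p = 6.94e-11), Rpl5 was higher (log2 fold change 3.31, SE 0.09, adjusted p = 2.21e-10) and Rpl35 was lower (log2 fold change -3.35, SE 0.11, adjusted p = 4.62e-10; whole-number -1.70, under the 4-fold mark). Of 67 replication-dependent histone genes 16 were tested, 9 were at least 4-fold higher and 1 lower. Hist1h1e was higher with both tables (5.96 and 5.81), and Hist1h2ap (6.13) had 2, 1, 2 and 1 whole-number counts. Hist2h2aa1 had no estimated cartilage count against 12.98, 14.1 and 15.8 CPM in the cultures (at least 9.402-fold lower); these copies are close to identical and their split is uncertain.

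**Figure D4:**
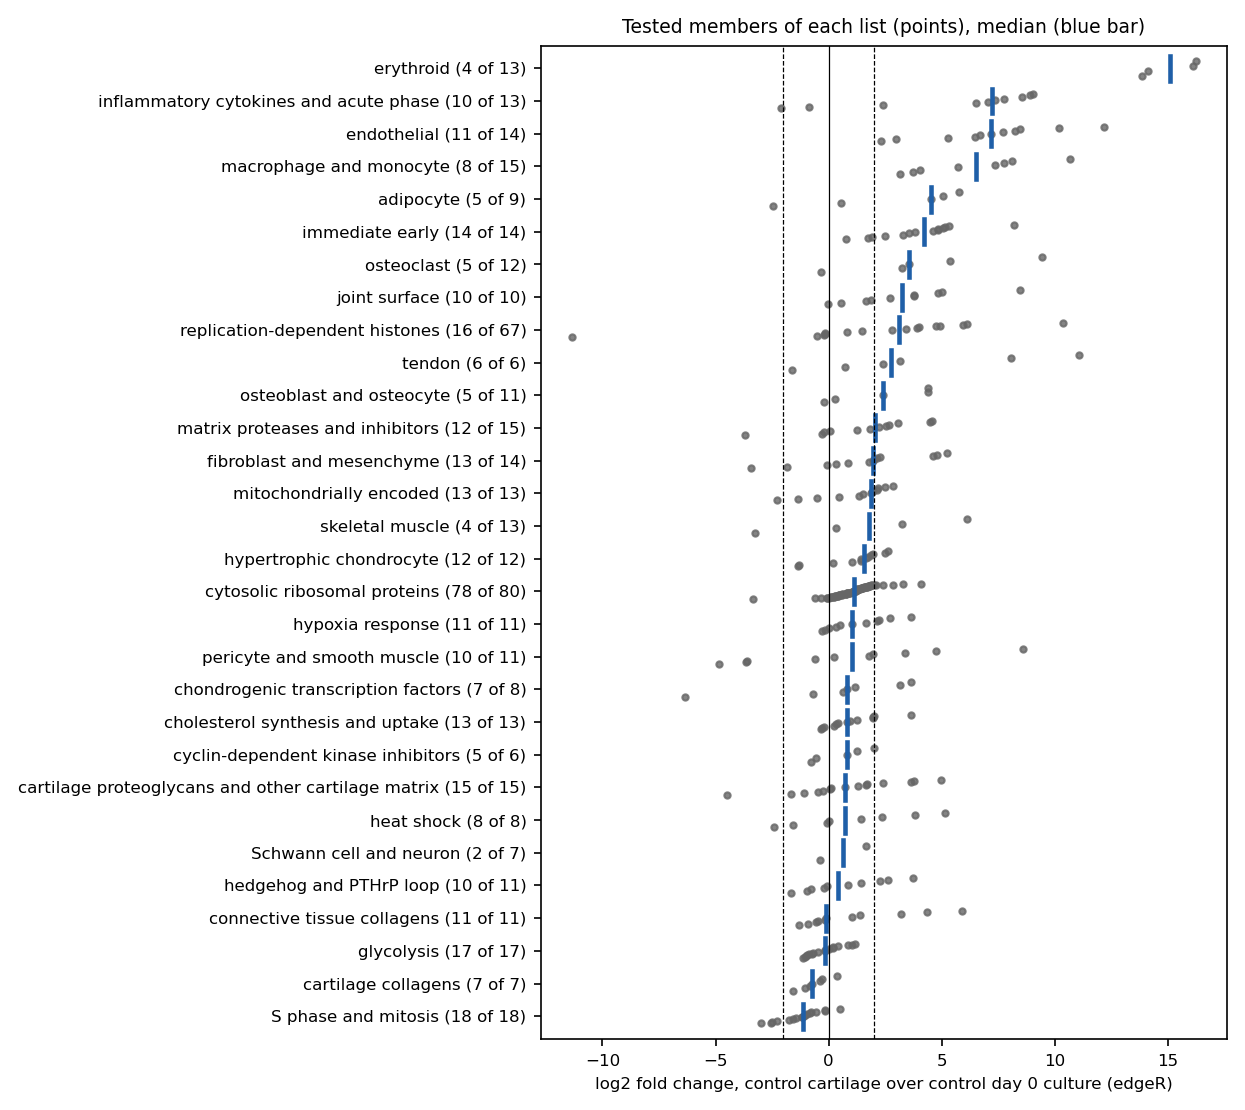
Each point is a tested member of a gene list at its log2 fold change of control cartilage over control day 0 culture, the blue bar is the list's median, brackets give tested of all members, and dashed lines mark 4-fold. Fitted values of genes without counts in 1 group are drawn although they are no measure of size; among the lists drawn, S phase and mitosis genes have the lowest median (-1.13) and the immediate early genes all lie above 0.

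Outside the lists, the protein-coding genes with the widest gaps and a mean log2 CPM of at least 5 were mostly uncertain on the higher side. Calb1, a calcium-binding protein, read 235, 254, 327 and 253 CPM in cartilage against 0.0793, 0.134 and 0.126 in the cultures (log2 fold change 11.13, SE 0.20, adjusted p = 1.999e-11), while the whole-number table held no Calb1 count in any control cartilage library. Gm10160 (11.16) and Gm9844 (10.69) had at most 2 whole-number counts a library, and Syndig1l was high in cartilage replicate 1 alone (348, 15.2, 11.5 and 27.7 CPM; ratio 15077, 95% counting interval 2706 to 595520).

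Genes lower in tissue were mostly low in both cartilage tables. Cdsn, corneodesmosin, an adhesion protein known from skin, was at 650.2, 679 and 664 CPM in the cultures and 1.02, 1.69, 1.82 and 1.04 in cartilage (ratio 499.8, 95% counting interval 279 to 1001). Slc6a9, the glycine transporter GlyT1, was at 211, 226 and 232 CPM against 4 counts over the cartilage libraries (ratio 461, 95% counting interval 180.2 to 1694). Adm2, a peptide hormone, was at 61.1, 61.7 and 66.1 CPM against 1 count (ratio 521, 95% counting interval 93.5 to 20581). B4galnt2, a glycosyltransferase, was at 73.7, 68.4 and 69.04 CPM against none (at least 46.3-fold lower). For these 4 genes the whole-number table too held at most 3 counts in any control cartilage library. Fam177a had no estimated count (at least 54.4-fold lower) and 1 whole-number count. Sap18b had no estimated count (at least 85.1-fold lower) but 10, 9, 8 and 17 whole-number counts (-3.68). Gm20716 (ratio 319.8, 95% counting interval 88.5 to 2640.4) and Gm20390 (-7.90) were not among the genes of the whole-number table.

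The control cultures after 3 days of BMP2, which drives chondrocyte differentiation, are set beside both groups as means ± SD, scaled together and with no test (n = 4 cartilage, 3 day 0 and 4 day 3 libraries). Prg4 was at 2332 ± 572 CPM in cartilage, 7.29 ± 0.661 at day 0 and 17.2 ± 3.75 at day 3. Sox9 was at 2224 ± 317, 276 ± 5.53 and 439 ± 34.96 CPM. For both, the BMP2 cultures remained well below tissue. Col10a1 was at 1169 ± 21.9 CPM at day 0 and 42.1 ± 23.9 at day 3, beside 407 ± 179 in cartilage. Fos was at 83.8 ± 5.83 and 2.81 ± 1.62 CPM in the cultures, and Acta2 at 632 ± 13.1 and 187 ± 23.3, beside 44.3 ± 11.8 in cartilage. Connective tissue and tendon genes went both ways. Col14a1 at 192 ± 35.4 CPM and Postn at 131 ± 29.1 were nearer to their cartilage levels (407 ± 93.02 and 409 ± 145) at day 3 than at day 0 (7.58 ± 2.69 and 16.5 ± 8.94). Thbs2 (56.7 ± 9.65 CPM at day 0, 264 ± 34.0 at day 3) and Col1a1 (2189 ± 608 and 4170 ± 570) were higher at day 3 too. Fap (4.67 ± 0.176 and 3.00 ± 1.09), Dpt (2.07 ± 0.649 and 1.38 ± 0.731) and Tnmd (1.89 ± 0.878 and 0.0280 ± 0.0324) were lower at day 3, further from cartilage.

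The same comparison in mutants (4 cKO cartilage and 3 cKO day 0 culture libraries, none shared with the controls) passed for 9323 genes (79.1%) and gave 2548 large differences of 11788 genes tested (21.6%), 1581 higher (13.4%) and 967 lower (8.20%). Of the 2825 large control differences, 2345 could be tested in mutants, 2331 of them had the same direction (99.4%), 1912 were again at least 4-fold (81.5%) and none was large in the opposite direction. The difference between genotypes, tested as an interaction, passed for 2673 of 12877 genes (20.8%) and reached 4-fold for 330 (2.56%). Prg4 was 6.97 in mutants, Sox9 3.40, Col1a1 4.08, Fos 5.22 and Fn1 -3.64 on the log2 scale. Dnmt1 itself, lower in control cartilage than in control culture, was at a mean of 31.6 CPM in mutant cartilage and 26.1 in mutant culture.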

How the data were processed

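RNA-seq of 4 control cartilage and 3 control untreated culture libraries was used, and for comparison 7 cKO libraries and 4 control BMP2 cultures. The authors deposited estimated counts per gene (not all whole) for both sources, and whole-number counts per gene for cartilage only, per the values of the deposited tables. The submitters' processing notes for cartilage name UMI-tools 1.1.1, Trim Galore 0.6.7, HISAT2 2.2.1, featureCounts 2.0.1 and DESeq2 1.34.0 without roles, and GRCm38 for all samples; the cultures' aligner and counter are not given in the sources used here. The 34866 gene identifiers shared by the tables were joined, and 34652 matched GENCODE M21, which gave symbols, coordinates and lengths. Estimated counts were rounded, genes filtered with filterByExpr (minimum count 10, minimum total 15), scaled by TMM and tested with edgeR 4.0.16 (quasi-likelihood F test, Benjamini-Hochberg adjustment over all genes tested) on the 7 samples alone. A large difference has an adjusted p under 0.05 and at least 4-fold. CPM values use TMM-scaled library sizes. The floor is 3 counts a library; counting intervals (95%, exact Poisson) cover counting error only. DESeq2 1.42.0 and limma 3.58.1 were alternatives in R 4.3.3. The fit was tested on simulated data.

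Named genes were 47 anchors (1 is not reported here), up to 3 further large, non-overlapping members a list, and up to 8 protein-coding genes a direction with mean log2 CPM of at least 5. Members named as the ends of a list's range were picked by that position, after their values were seen. The comparison, lists and genes were chosen with earlier results of these data known. Replicate numbers did not pair the samples: deviations of same-numbered libraries correlated at -0.06, -0.09 and -0.03 over 9683 genes. No libraries were duplicates.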

Additional observations from a re-analysis of the deposited data

Results flagged for a closer look

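In 10 of 119 named genes 1 control cartilage library lay far from the other 3 by Dixon's test; chance marks about 1 in 20. Replicate 4 was low for Mki67 (68.6 CPM, others 119 to 127) and Chad (652 CPM, others 1109 to 1161), and high for Cxcl1 (174 CPM, others 118 to 125) and Hspa1b (184 CPM, others 81.3 to 97.3). Replicate 1 was high for Syndig1l (348 CPM, others 11.5 to 27.7) and replicate 3 for Gm10160 (136 CPM, others 114 to 115). The remaining 4 rest on 1 to 4 counts: Nkx3-2 (0.510 CPM), Gm20716 (1.02 CPM) and Gm20390 (2.04 CPM) in replicate 1, and Adm2 (0.346 CPM) in replicate 4, each with 0 in the other 3.

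For 17 named genes the cartilage-over-culture difference itself differed between genotypes by at least 4-fold (interaction, edgeR, adjusted p under 0.05); values are mutant minus control on the log2 scale. It was more positive in mutants for Clec3a (3.62), Cdsn (3.48), Matn1 (2.79), Snorc (2.26) and Dpt (2.01). It was more negative in mutants for Mmp9 (-5.88), Acp5 (-3.79), Hspa1a (-3.59), Hist1h2ap (-3.56), Hspa1b (-3.42), Mmp3 (-3.34), Esam (-3.27), Ccl2 (-2.62), Abcc9 (-2.45), Dmp1 (-2.43), Csf1r (-2.31) and Fabp4 (-2.01). Mmp9, Acp5, Dmp1 and Abcc9 were below the expression filter in the comparison of mutants alone. For B4galnt2 and Adm2, with at most 1 count over the control cartilage libraries, no such difference is given. Mutant cartilage and control cartilage were in different library pools, so pool and genotype cannot be told apart there.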

How the results depend on the processing

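Of 114 counts under alternatives, for controls, mutants and the genotype difference, 90 stayed within 1.5 times. Without the expression filter 3861 genes were higher and 1875 lower by 4-fold, because more genes were tested; with whole-number counts 1031 were higher; with both tables (chosen after seeing the data) 694 were higher and 496 lower. With male cartilage only 1564 were lower and with female only 1625; leaving out 1 library gave 1495 to 1557 lower with a cartilage library out, and 925 to 929 with a culture out, the former testing 15018 to 15058 genes instead of 12384, since the filter's CPM limit follows the median library size. A 2-fold mark gave 3208 higher and 3029 lower, an 8-fold mark 372 lower, and a test against 4-fold itself (glmTreat) 581 lower. In mutants whole-number counts gave 815 higher, and leaving out 1 library gave 1778 to 2568 higher and 1022 to 1788 lower, the upper values with a cartilage library out. With a replicate block, although the numbers did not pair the samples, 1900 genes were higher and 976 lower, and 9584 passed. In mutants the block gave 1569 higher and 999 lower. Of 2348 values of single named genes under alternatives 9 changed sign: with whole-number counts Matn1 (0.037), Ctsk (0.19), Idi1 (-2.87) and mt-Nd3 (-4.53); per transcript length Mki67 (0.41), mt-Nd3 (-0.42) and mt-Nd6 (-0.19); and Ddx3y with female cartilage (-2.81) or, over the range with 1 library left out (-0.019 to 7.08), without cartilage replicate 2. Except where a cause is stated, the cause was not tested. The cartilage depth limits genes under 1.01 to 1.74 CPM.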

Other observations

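The 2 gene groups below were put together after values were seen, so their counts are a description with no test. Genes of the amino acid response and of serine and glycine synthesis, many of them targets of the transcription factor Atf4, were lower in cartilage: of 24 genes 23 were lower at an adjusted p under 0.05, none was higher, and 16 were lower by at least 4-fold. Over all genes tested 42.8% were lower and 7.55% lower by at least 4-fold. The median log2 fold change was -3.27 beside -0.10 for all genes. Psat1 of serine synthesis was at 20.9 ± 5.58 CPM in cartilage and 449 ± 3.91 in culture (log2 fold change -4.44). Phgdh, the first enzyme of that route, was at 37.6 ± 8.14 CPM in cartilage and 541 ± 10.7 in culture (log2 fold change -3.83). With whole-number counts Phgdh was at a mean of 3.44 CPM in cartilage and the log2 fold change was -7.21, so the size of its difference is uncertain. Trib3, a pseudokinase induced by Atf4, was at 6.27 ± 2.08 CPM in cartilage and 189 ± 2.91 in culture (log2 fold change -4.93), Aldh1l2 of mitochondrial folate metabolism at 36.4 ± 3.496 CPM in cartilage and 569 ± 9.16 in culture (log2 fold change -3.97), and large neutral amino acid uptake showed 40.1 ± 4.33 CPM in cartilage and 568 ± 25.7 in culture (log2 fold change -3.82) for the transporter Slc7a5. Atf4 RNA itself differed less, at 469 ± 13.95 CPM in cartilage and 652 ± 7.899 in culture (log2 fold change -0.48).

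Of 19 genes of the actin cytoskeleton and of YAP or SRF targets, 18 were tested, with a median of -1.35. At any size 15 were lower and 3 higher, beside 42.8% and 39.2% of all genes tested. By at least 4-fold 7 were lower and 1 higher, beside 7.55% and 15.3%. Thbs1, a matrix protein, was at 534 ± 51.9 CPM in cartilage and 10668 ± 283 in culture (log2 fold change -4.32), Flnc, an actin crosslinker, at 11.002 ± 2.32 CPM in cartilage and 183 ± 13.1 in culture (log2 fold change -4.05), and Ccn2, a matricellular growth regulator, at 339.7 ± 38.7 CPM in cartilage and 2287 ± 78.8 in culture (log2 fold change -2.75). The cartilage tables disagreed for Actg1, the other cytoplasmic actin, at a mean of 1198 CPM with estimated and 24.4 with whole-number counts (log2 fold change -0.83 and -6.43). Actb, cytoplasmic actin, was the exception, at 7941 ± 1025 CPM in cartilage and 1533 ± 32.7 in culture (log2 fold change 2.37).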
